A study of Mus musculus with 42 samples.

Results

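The genes described here were 7 listed members of the SREBP2 pathway, which controls cholesterol synthesis, out of 54532 genes in the read count table. They were found by their gene names, and all 7 passed the filter on low counts. Srebf2 encodes the transcription factor itself. Hmgcs1, Idi1, Sqle, and Cyp51 encode enzymes of the sterol synthesis pathway, and Insig1 and Insig2 encode the proteins that hold the factor back. The values came from libraries labelled as liver of pubertal female C57BL/6 mice (C57BL/6NHsd in the study's methods) that entered the study as weanlings of 3 weeks. They were fed for 3 weeks either the standard AIN93G diet, in which soybean oil gave 16% of the energy, or a modified AIN93G high-fat diet (HFD), in which the same oil gave 45%. Livers were taken at steps of 4 h from ZT 0 to ZT 24, where ZT is Zeitgeber time, counted from lights on, and the dark phase starts at ZT 12. Poly(A) RNA made 42 libraries, all labelled liver, 3 for each diet and time, and replicate numbers below are only names.

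SREBP2 is made as a membrane protein of the endoplasmic reticulum. When sterols are scarce, the escort protein SCAP carries it to the Golgi, where it is cut, and its released part activates genes of sterol synthesis. When sterols are plentiful, INSIG1 or INSIG2 binds SCAP and keeps the complex in the endoplasmic reticulum. Insig1 is itself a target of SREBP, while Insig2 in mouse liver is transcribed mainly from a liver-specific start and follows the circadian clock.

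Albumin (Alb) was used to check the tissue. In 32 libraries Alb was above 10000 CPM (read counts scaled to one common library total), with a lowest value of 64810 CPM after TMM scaling, and only these were taken as liver. In the other 10 libraries, 10 hepatocyte markers summed to 563 to 1387 CPM against 103684 to 149414 CPM in liver, and 8 adipocyte markers to 14978 to 27143 CPM against 17.1 to 82.3 CPM. On AIN93G, no library of ZT 16 or ZT 20 was liver by this rule, and at ZT 24 each diet kept 1 of 3. The diets could therefore be compared in liver at ZT 0, 4, 8, and 12 only, with 3 libraries a group, and a full day was covered on the HFD only. Total counts ranged from 14592500 to 19815400 in the 32 liver libraries, and each member had at least 296 counts in each of them. CPM in the text below is scaled by library size and TMM factors unless library size alone is named. In bulk RNA, fewer cells of a type and less RNA per cell cannot be told apart.

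The 6 liver libraries of ZT 12 stood apart from one another. Dbp, an output gene of the clock, was at 102, 0.36, and 0.13 CPM in AIN93G replicates 1, 2, and 3, and at 62.3, 79.6, and 0.13 CPM in HFD replicates 1, 2, and 3. Its range was 0.25 to 0.84 CPM at ZT 0 and 97.0 to 176 CPM at ZT 8, so by Dbp 3 libraries of ZT 12 resembled ZT 0 and 3 lay within or below the range of ZT 8. Nr1d1, which encodes the clock repressor REV-ERBα, did not place the latter 3 at ZT 8: it was at 15.3, 11.9, and 15.1 CPM in AIN93G replicate 1 and HFD replicates 1 and 2, between its ranges at ZT 0 (2.24 to 9.66 CPM) and ZT 8 (51.7 to 116 CPM). The labels put 2 of the 6 (AIN93G replicate 2 and HFD replicate 3) in the light phase and 4 in the dark phase. The only liver libraries of ZT 24 had Dbp at 155 CPM (AIN93G) and 68.3 CPM (HFD). For the members, the averaged diet differences, time courses, and correlations are therefore given with and without ZT 12, as are the counts of the lists in the averaged diet difference and the cosine.

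The sequences upstream of 3 members are shown as examples. Hmgcs1 is 1 of the enzymes, which moved together from mouse to mouse, Insig1 followed them in part, and Insig2 changed with time of day. Hmgcs1 was the enzyme least close to the other enzymes (r of 0.71 to 0.84), and its sequence does not stand for theirs. They are from RefSeq on build GRCm38.p6, are written 5′ to 3′ on the gene's strand, and stop before the first annotated base of the gene. Capitals mark matches on either strand to the sterol regulatory element TCACNCCAC, the CCAAT box CCAAT, and the E-box CACGTG. The element TCACNCCAC is a site for SREBP, CCAAT is bound by NF-Y, and CACGTG can be bound by clock factors as well as by SREBP.
Hmgcs1, chr13:119690101-119690350, plus strand: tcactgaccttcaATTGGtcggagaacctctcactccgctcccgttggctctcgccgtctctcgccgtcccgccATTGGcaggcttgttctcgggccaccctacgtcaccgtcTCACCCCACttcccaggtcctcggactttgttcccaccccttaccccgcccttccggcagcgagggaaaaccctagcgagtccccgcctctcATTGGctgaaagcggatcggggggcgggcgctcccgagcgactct
Insig1, chr5:28071162-28071362, plus strand: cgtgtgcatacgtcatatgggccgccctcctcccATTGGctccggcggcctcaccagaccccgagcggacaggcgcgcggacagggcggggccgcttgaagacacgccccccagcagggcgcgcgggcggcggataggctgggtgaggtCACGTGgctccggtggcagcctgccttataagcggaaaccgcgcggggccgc
Insig2, chr1:121332590-121332839, minus strand: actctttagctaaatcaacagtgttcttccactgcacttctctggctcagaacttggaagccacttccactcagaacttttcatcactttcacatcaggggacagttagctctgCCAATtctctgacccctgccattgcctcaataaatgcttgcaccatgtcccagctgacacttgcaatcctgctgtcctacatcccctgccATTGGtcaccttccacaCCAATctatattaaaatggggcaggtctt

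Promoters from 250 bases before to 50 bases after the RefSeq start were on hand for 6 of the 7 members, 8 promoters in all because Insig2 has 3 starts; Sqle had no entry. Among 32851 mouse promoters, 1.24% held the sterol element, 37.4% a CCAAT box, and 7.15% the E-box. Hmgcs1 was the only member with the exact sterol element, and its match began 137 bases before the start. A CCAAT box was present in at least 1 promoter of each of the 6 members, with 3 in the first Insig2 promoter and none in its other two. The E-box was found in Insig1 alone, 101 bases before the start. A match describes letters only, and looser forms of these elements were not searched.

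The genes lie on 4 chromosomes of build GRCm38. Srebf2 (ENSMUSG00000022463) spans chr15:82147181-82205379 and Sqle (ENSMUSG00000022351) chr15:59315077-59331192. Hmgcs1 (ENSMUSG00000093930) spans chr13:119690379-119708260 and Idi1 (ENSMUSG00000058258) chr13:8885501-8892451. Cyp51 (ENSMUSG00000001467) lies on chr5:4081145-4104746 and Insig1 (ENSMUSG00000045294) on chr5:28071363-28078662. Insig2 (ENSMUSG00000003721) is at chr1:121304353-121332589. Counts were per gene, so the 3 starts of Insig2 were not separated.

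In liver, the level per length was highest for the INSIG genes and lowest for Srebf2. In median CPM per kilobase of the gene length given with the counts, the order over the 32 libraries was Insig1 (123, range 53.7 to 280), Insig2 (85.0, 17.3 to 161), Hmgcs1 (49.8, 18.1 to 115), Cyp51 (32.3, 12.7 to 54.5), Idi1 (15.0, 5.06 to 31.3), Sqle (10.3, 3.44 to 19.6), and Srebf2 (9.26, 7.22 to 13.4). The ranges of each neighbouring pair in this order overlapped. Srebf2 was the steadiest member, with an SD of log2 CPM of 0.21 over the 32 libraries, close to that of Alb (0.18). Insig2 varied most, with an SD of 0.86 and a 9.31-fold range, followed by Sqle (0.72), Hmgcs1 (0.64), Idi1 (0.62), Insig1 (0.57), and Cyp51 (0.52).

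**Figure D1:**
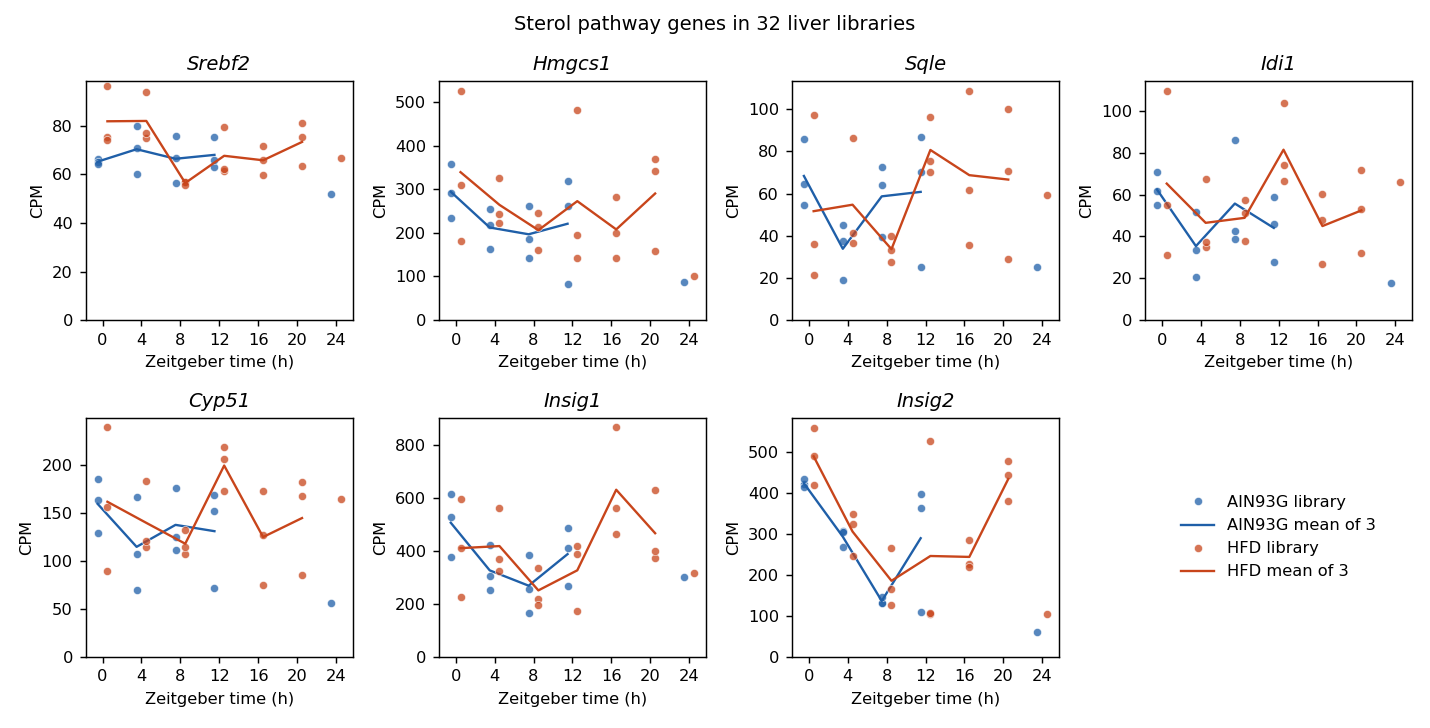
Levels of the 7 genes (CPM, linear axes from 0) against Zeitgeber time (h) in 32 liver libraries. Points are single libraries, blue for AIN93G and red for the HFD, and lines join the means of groups of 3. Insig2 falls from ZT 0 to ZT 8 on both diets and splits into separate levels at ZT 12, while the enzymes scatter widely within groups.

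The first question was whether the HFD changed the members in liver. No member passed the adjusted threshold at any of the 4 time points or in the average over them, so the data gave no called diet difference in SREBP2 or its listed genes. Averaged over ZT 0 to ZT 12 (24 libraries, time point as a term), the HFD was higher than AIN93G by log2 0.23 for Hmgcs1 (95% interval -0.20 to 0.66), 0.29 for Idi1 (-0.14 to 0.73), 0.18 for Cyp51 (-0.18 to 0.53), and 0.13 for Insig2 (-0.34 to 0.59). The estimate was 0.08 for Srebf2 (-0.08 to 0.25), -0.02 for Sqle (-0.55 to 0.51), and -0.07 for Insig1 (-0.45 to 0.31). The lowest adjusted p of the 7 was 0.758 (edgeR quasi-likelihood test). The intervals bound an average change of Srebf2 to between 0.944- and 1.19-fold and that of Hmgcs1 to between 0.869- and 1.58-fold. The widest interval, that of Sqle, was 0.682- to 1.43-fold. In this comparison 16 of 12000 tested genes were called, or 0.133%. Without ZT 12, 0.708% of genes and no member were called, and the estimates were log2 0.11 for Srebf2, 0.20 for Hmgcs1, -0.17 for Sqle, 0.09 for Idi1, 0.03 for Cyp51, -0.0090 for Insig1, and 0.24 for Insig2.

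At single time points, 9 of 12000 genes were called at ZT 0 (0.075%) and 0 at ZT 4, ZT 8, and ZT 12 (0%). At an unadjusted p under 0.05 there were 970, 422, 864, and 522 genes at ZT 0, 4, 8, and 12, and DESeq2 called 102, 28, 57, and 4. No member was among the calls of either tool.

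At ZT 0 Srebf2, which encodes the factor, was at 66.4, 65.2, and 64.2 CPM on AIN93G and at 96.3, 75.3, and 74.1 CPM on the HFD. The groups did not overlap, and the difference was log2 0.33 (SE 0.12, adjusted p = 0.589 in edgeR). Groups of 13.3% of all tested genes did not overlap at ZT 0, and Srebf2 was the only one of the 7 members among them, a share near this background. At ZT 4 Srebf2 was at 71.0, 60.2, and 80.0 CPM on AIN93G and at 94.1, 74.8, and 77.2 CPM on the HFD, and no member had groups that did not overlap, against 7.58% of genes. At ZT 8 the order turned, with 75.9, 56.7, and 66.8 CPM on AIN93G and 56.9, 57.1, and 55.5 CPM on the HFD. The groups overlapped there.

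Sqle, which makes squalene epoxide, had the largest diet difference of the members at ZT 8. It was at 72.6, 39.4, and 64.1 CPM on AIN93G and at 40.0, 27.5, and 33.5 CPM on the HFD. The second AIN93G library lay just within the HFD range, and the difference was log2 -0.80 (SE 0.24, adjusted p = 0.677 in edgeR). Groups of 0 members did not overlap at ZT 8, against 13% of genes. At ZT 4 the estimate had the opposite sign, log2 0.70 (SE 0.36), with 37.3, 19.1, and 45.1 CPM on AIN93G and 86.2, 41.2, and 36.8 CPM on the HFD. With no filter on low counts Sqle passed at both times, with adjusted p = 0.00604 at ZT 4, where 0.715% of 25452 genes were called, and 0.0233 at ZT 8, where 0.990% of 25456 were. These calls rested on that setting, and its part in them was not tested.

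Idi1 and Cyp51 had groups that did not overlap at ZT 12, as did 10.2% of genes. Idi1, the isomerase of the isoprenoid units, was at 27.6, 45.9, and 58.8 CPM on AIN93G and at 66.3, 104, and 74.4 CPM on the HFD, a difference of log2 0.89 (SE 0.30, adjusted p = 0.908 in edgeR). Cyp51, the lanosterol demethylase, was at 71.9, 153, and 169 CPM on AIN93G and at 174, 206, and 220 CPM on the HFD, a difference of log2 0.61 (SE 0.30). Both were lowest in the AIN93G library with Dbp at 102 CPM. In the HFD libraries with Dbp at 62.3 and 79.6 CPM, however, both were above all AIN93G libraries of ZT 12. Idi1 was at 66.3 and 104 CPM there, and Cyp51 at 174 and 206 CPM. For Hmgcs1, the HMG-CoA synthase, the range at ZT 12 was 83.1 to 319 CPM on AIN93G and 142 to 482 CPM on the HFD, and these ranges overlapped. Insig1 differed by log2 -0.30, 0.36, -0.10, and -0.25 at ZT 0, 4, 8, and 12, and each interval included 0. Insig2 differed by 0.21, 0.06, 0.45, and -0.24 at the same times, also with intervals that included 0, and its value at ZT 12 ran from -1.45 to 0.12 when 1 library was left out.

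The diet difference did not pass the test for variation among the 4 time points in any member, and 0 of 12000 genes passed it (0%, 701 at an unadjusted p under 0.05, and 8 with DESeq2). The lowest adjusted p among the members was 0.850, for Srebf2.

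**Figure D2:**
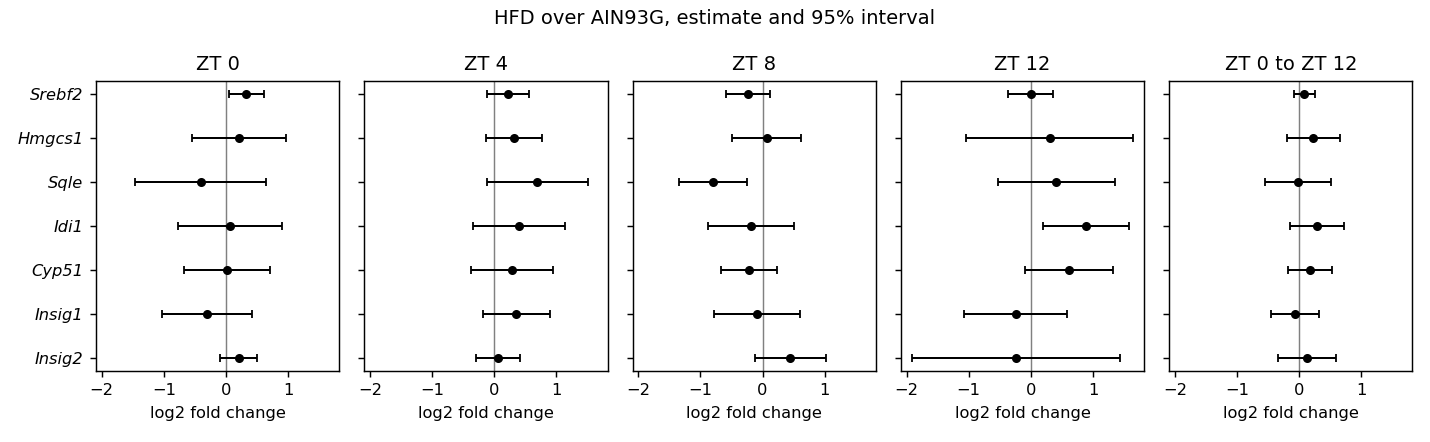
Log2 fold change of the HFD over AIN93G for each gene, with its 95% interval, at ZT 0, 4, 8, and 12 (3 against 3 libraries) and over the 4 time points (24 libraries). Intervals for Srebf2 at ZT 0, Sqle at ZT 8, and Idi1 at ZT 12 leave out 0 before adjustment, and those of the average include it in all 7.

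The rest of the pathway was given by 5 lists. Of 16 other sterol synthesis enzymes, 0 were called in any diet comparison, and their median difference over ZT 0 to ZT 12 was log2 0.02, with 9 of 16 higher on the HFD. The median of all 12000 genes was -0.0017. At ZT 0, 4, 8, and 12 taken singly, 7, 11, 1, and 14 of the 16 enzymes were higher on the HFD. Their medians were then log2 -0.07, 0.16, -0.14, and 0.25, and these shifts were not tested as a set. In the average over ZT 0 to ZT 12, 4 other SREBP2 targets had a median of log2 -0.03. That of 8 genes of SREBP processing and sterol-dependent degradation was -0.01, and that of 12 genes of the LXR pathway and sterol disposal 0.12. In these 3 lists 0 genes were called in any diet comparison. Among the 4 targets, Aacs was lower on the HFD at ZT 0 (log2 -1.69, adjusted p = 0.449 in edgeR), while 2 of the 4 were higher. The 10 lipogenic genes that answer to SREBP1, the sister factor, gave other values. Of these, 0 of 10 were higher on the HFD, 3 were called, and the median was log2 -0.98. With 0.133% of all genes called in this comparison and at most 0.075% at single time points, lists of 4 to 16 genes were likely to hold no call, so a count of 0 says little of a list.

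The called lipogenic genes were Pnpla3, a lipase of the lipid droplet (log2 -2.44, adjusted p = 0.0337), Scd1, the stearoyl-CoA desaturase (-1.85, adjusted p = 0.0359), and Acaca, the acetyl-CoA carboxylase (-1.02, adjusted p = 0.0359, all edgeR). At ZT 0 the median of the list was log2 -1.92, and Scd1 (-3.12, adjusted p = 0.0329) and Me1, the malic enzyme (-2.01, adjusted p = 0.0243), were called. At ZT 4, 8, and 12 the medians were log2 -0.71, -0.73, and -0.64, with 0 called. At these times 0, 1, and 1 of the 10 genes were higher on the HFD. The calls at ZT 0 depended on the fit: 0 of 12000 genes were called at ZT 0 in 1 fit of 24 libraries, and 1 without AIN93G ZT 0 replicate 2. In the average over ZT 0 to ZT 12, 2 genes in all were called without AIN93G ZT 12 replicate 3, and 2 without HFD ZT 4 replicate 3, so that at least 1 of the 3 lipogenic calls was lost in each. Without ZT 12, 5 of the 10 lipogenic genes were called, all lower on the HFD, with a median of log2 -1.11, and 0 genes of the other 4 lists. The medians of those lists were then log2 -0.07 for the sterol synthesis enzymes, with 6 of 16 higher on the HFD, -0.13 for the other SREBP2 targets, 0.03 for the processing genes, and 0.06 for the LXR pathway and sterol disposal, so that the sign turned for the enzymes and the processing genes. The difference between these 10 genes and the 7 members was not tested.

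**Figure D3:**
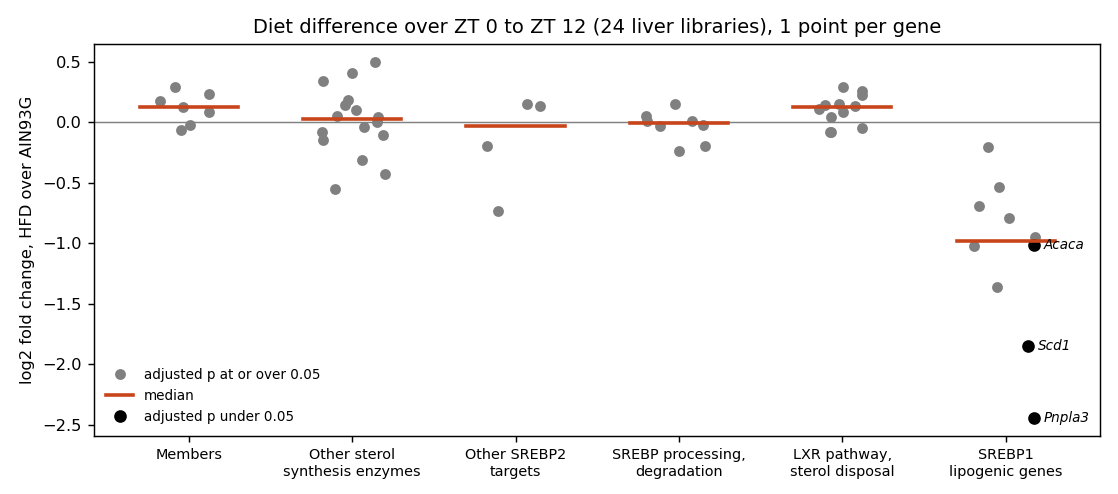
Log2 fold change of the HFD over AIN93G over ZT 0 to ZT 12 (24 liver libraries), 1 point per gene, for the members and 5 lists. Bars are medians and black points passed the adjusted threshold: 3 of 10 SREBP1 lipogenic genes did, and no gene of the other lists or of the members.

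The second question was how the members changed over the day. Insig2 was the member that changed most with time. On AIN93G it was at 421, 435, and 416 CPM at ZT 0, at 307, 268, and 306 CPM at ZT 4, and at 133, 131, and 146 CPM at ZT 8. No 2 of these 3 groups overlapped, as was so for 1.88% of all tested genes and for no other member. On the HFD it was at 491, 559, and 420 CPM at ZT 0, at 246, 324, and 348 CPM at ZT 4, at 267, 165, and 126 CPM at ZT 8, at 228, 220, and 285 CPM at ZT 16, and at 380, 445, and 478 CPM at ZT 20. The level thus fell from ZT 0 to ZT 8 on both diets and was back near its start by ZT 20 on the HFD. At ZT 12, Insig2 was at 109, 363, and 397 CPM on AIN93G and at 104, 107, and 528 CPM on the HFD. The 3 low libraries were those with high Dbp, and the 3 high ones were those with Dbp under 1 CPM. The liver libraries of ZT 24 had 60.1 CPM (AIN93G) and 105 CPM (HFD), far below ZT 0.

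With all time points in groups of 3, no member passed the adjusted test of time in either diet. On AIN93G (ZT 0 to ZT 12, 12 libraries) 0 of 12000 genes were called (0%), with 1174 at an unadjusted p under 0.05, and Insig2 had an adjusted p of 0.262. DESeq2 called 2.30% of genes, among them Insig2 alone of the members (adjusted p = 0.00339). Without ZT 12, edgeR called 2.40% of genes, and Insig2 alone of the members (adjusted p = 0.00012). Leaving out only AIN93G ZT 12 replicate 1, the library with Dbp at 102 CPM, gave Insig2 an adjusted p of 4.6e-05, with 2.54% of genes called. Without any other single AIN93G library Insig2 was not called in edgeR, with adjusted p-values up to 0.591.

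On the HFD (ZT 0 to ZT 20, 18 libraries) 2.65% of genes were called over time, and Insig2 had an adjusted p of 0.220. In a fit of a 24 h cosine, 8.52% of genes were called, and Insig2 had an amplitude of log2 0.63, a peak at ZT 22.4, and an adjusted p of 0.0610. Without ZT 12, Insig2 alone of the members was called, both over time (adjusted p = 0.00644, 5.24% of genes called) and for the cosine (adjusted p = 0.000511, 8.50% of genes). Its amplitude was then log2 0.84, which is a 3.18-fold range from trough to peak, with a peak at ZT 22.8. Without HFD ZT 12 replicate 3 alone the adjusted p of the cosine was 2.4e-05 for Insig2, with 14.2% of genes called. Srebf2 was then called as well (adjusted p = 0.0215). That library had Insig2 at 528 CPM. Without any other single HFD library Insig2 was not called (adjusted p = 0.0672 to 0.120 in edgeR). With the HFD liver library of ZT 24 added, the adjusted p of the cosine of Insig2 was 0.240. With no filter on low counts it was 0.00445, where 4.59% of 28586 genes were called, and with limma on log2 CPM 0.0134, where 8.66% of 12000 were.

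The libraries of ZT 0, 4, and 8 from both diets were also fitted together, with diet as a term (18 libraries), a fit that was chosen after these values had been seen. Insig2 was lower than at ZT 0 by log2 -0.61 at ZT 4 and -1.52 at ZT 8, a fall of 2.86-fold (adjusted p = 4.06e-06 in edgeR). It ranked 43rd by p among the 12000 genes, of which 10.9% were called. No other member was called. Their differences from ZT 0 to ZT 8 were log2 -0.82 for Insig1, -0.65 for Hmgcs1, -0.39 for Sqle, -0.33 for Cyp51, -0.28 for Idi1, and -0.25 for Srebf2, all below 0.

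**Figure D4:**
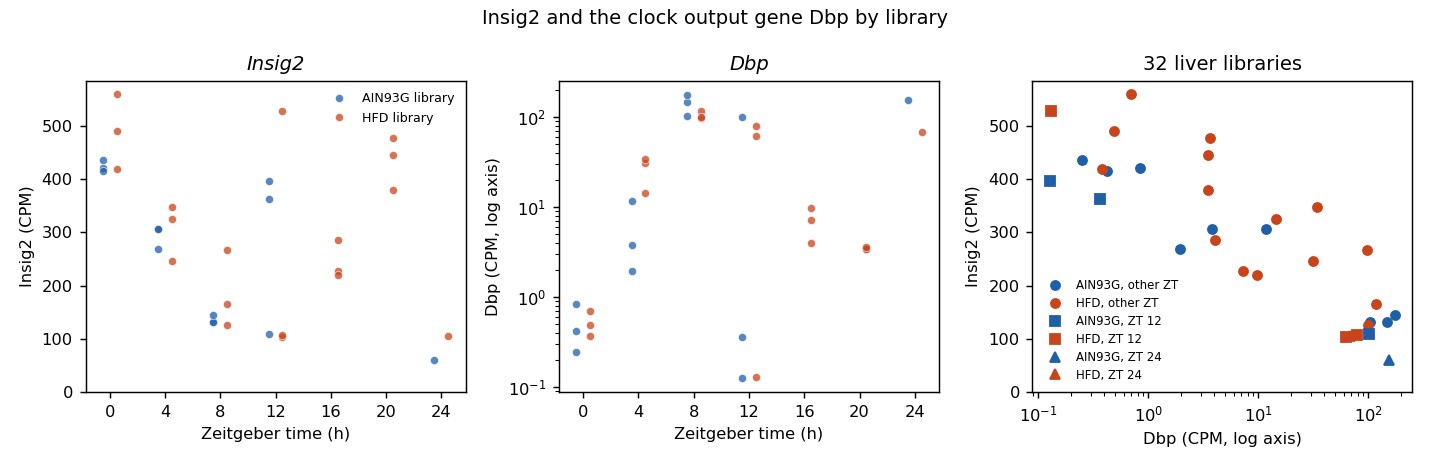
Insig2 (CPM, linear axis) and Dbp (CPM, log axis) against Zeitgeber time (h), and Insig2 against Dbp in the same 32 liver libraries; blue is AIN93G and red the HFD. Squares mark ZT 12 and triangles ZT 24: libraries with Dbp under 1 CPM have Insig2 at 363 CPM or more, and those of ZT 12 and ZT 24 with Dbp above 60 CPM have Insig2 at 109 CPM or less.

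Insig1, the inducible partner of Insig2, had its highest group mean on the HFD at ZT 16, and its profile was not tested against those of other members. It was at 595, 225, and 410 CPM at ZT 0, at 369, 561, and 323 CPM at ZT 4, at 218, 197, and 336 CPM at ZT 8, at 173, 389, and 417 CPM at ZT 12, at 867, 562, and 462 CPM at ZT 16, and at 629, 372, and 398 CPM at ZT 20. All libraries of ZT 16 were above all of ZT 8. Groups of 24.1% of genes, and of Srebf2 among the other members, also did not overlap in this pair. The difference in Insig1, log2 1.33 (SE 0.38, adjusted p = 0.0485 in edgeR), was the only 1 called for a member among 15 pairs of HFD time points, and 5.67% of genes were called in this pair. Adjusted p-values were computed within each pair. Over all time points Insig1 had an adjusted p of 0.221, and its 24 h cosine had an amplitude of log2 0.46, a peak at ZT 19.4, and an adjusted p of 0.168. Without ZT 12 the cosine of Insig1 had an amplitude of 0.42, a peak at ZT 18.5, and an adjusted p of 0.209.

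Srebf2 had a shallow profile on the HFD, from group means of 81.9 ± 12.5 and 82.0 ± 10.5 CPM (SD, n = 3) at ZT 0 and ZT 4 to 56.5 ± 0.8 CPM at ZT 8, and 67.7 ± 10.3, 65.8 ± 5.9, and 73.4 ± 9.0 CPM at ZT 12, 16, and 20. Its adjusted p over time was 0.139 in edgeR and 0.0386 in DESeq2, which called 12.8% of genes. The cosine had an amplitude of log2 0.20, a peak at ZT 23.8, and an adjusted p of 0.118. Without ZT 12 the amplitude was 0.31 with an adjusted p of 0.0554, and the adjusted p over time was 0.0963. In the DESeq2 fit of the cosine, 13.9% of genes were called, among them Insig2 (adjusted p = 0.0358) and no other member.

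The 4 enzymes did not follow a common time course that passed the test on the HFD. Their cosine amplitudes were log2 0.24 for Hmgcs1, 0.37 for Sqle, 0.10 for Idi1, and 0.06 for Cyp51, with adjusted p-values of 0.461 to 0.952. Without ZT 12 they were 0.46 for Hmgcs1, 0.40 for Sqle, 0.24 for Idi1, and 0.26 for Cyp51, with adjusted p-values of 0.233 to 0.710. The fitted peak moved from ZT 12.8 to ZT 23.9 for Idi1 and from ZT 14.5 to ZT 23.5 for Cyp51. For Sqle the 3 libraries of ZT 16 were at 109, 35.5, and 61.9 CPM and those of ZT 20 at 100.3, 28.8, and 70.9 CPM, so mice of 1 time point differed more than the group means did. With no filter on low counts, 6 of the 7 members were called over time on the HFD, Srebf2 excepted, where 8.16% of 28586 genes were called. The part of that setting in these calls was not tested.

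The lists around the members were counted over the HFD day in the same way, and differences between lists were not tested. For the cosine, with its background of 8.52%, 0 of 16 other synthesis enzymes, 3 of 4 other SREBP2 targets, 1 of 8 processing genes, 5 of 12 genes of the LXR pathway and sterol disposal, and 7 of 10 SREBP1 lipogenic genes were called. Without ZT 12, with its background of 8.50%, these counts were 0, 2, 2, 4, and 7 in the same order. Among the targets, Aacs, which activates acetoacetate, had an amplitude of log2 1.34 with a peak at ZT 14.9 (adjusted p = 0.00121). Tmem97 (0.36, peak at ZT 12.4) and Npc1, which moves cholesterol out of lysosomes (0.38, peak at ZT 7.5), were also called, of which Tmem97 was not called without ZT 12. Abcg5 and Abcg8, whose products form the sterol exporter into bile, peaked at ZT 7.4 and ZT 6.6 with amplitudes of 0.55 and 0.69. Cyp7a1, the rate-limiting enzyme of bile acid synthesis, peaked at ZT 10.8 with an amplitude of 1.25. Soat2, which esterifies cholesterol, peaked at ZT 4.9 (0.40). Cyp8b1, the sterol hydroxylase of cholic acid synthesis, completed the 5 called genes of its list with a peak at ZT 21.6 (0.58), outside the naming rule and chosen after its values were seen, and was not called without ZT 12 (adjusted p = 0.0557). Among the processing genes, Erlin1, a factor in sterol-dependent degradation, peaked at ZT 8.7 (0.25).

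The third question was whether the members deviated together from mouse to mouse. In the 30 liver libraries of groups with 3, the mean log2 CPM of each diet and time group was removed, and libraries were permuted within groups (100000 resamples, two-sided, adjusted over 21 pairs). Pairs of other genes were not tested in this way, so no share over all genes can be set beside these values. The 4 enzymes moved together closely. Pearson r was 0.95 for Sqle and Cyp51 (Spearman rho 0.95), 0.94 for Idi1 and Cyp51 (0.93), 0.92 for Sqle and Idi1 (0.92), 0.84 for Hmgcs1 and Cyp51 (0.87), 0.79 for Hmgcs1 and Sqle (0.81), and 0.71 for Hmgcs1 and Idi1 (0.74). For the first 4 of these pairs the permutation p of r was 1e-05, the smallest that the resamples can give (adjusted p = 5.25e-05). Permutation p-values of the other two were 7e-05 and 0.00039 (adjusted p = 0.00021 and 0.00102), and those of rho for the 6 pairs were 1e-05 to 0.00043. Without the 2 libraries farthest from the median of the first gene, r was 0.94, 0.93, 0.91, 0.87, 0.85, and 0.79. Within the diets, Sqle and Cyp51 gave r = 0.95 on AIN93G (12 libraries) and 0.96 on the HFD (18 libraries). Without ZT 12 (24 libraries) r of the 6 enzyme pairs was 0.84 to 0.96.

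Srebf2 moved with the enzymes as well, though its own level varied little. Its r was 0.77 with Hmgcs1, 0.74 with Sqle, 0.71 with Idi1, and 0.78 with Cyp51 (rho 0.81, 0.75, 0.70, and 0.77), with permutation p-values of r from 5e-05 to 0.00142 and adjusted p-values from 0.000175 to 0.00298. Permutation p-values of rho were 5e-05 to 0.00175. Without the 2 farthest libraries r was 0.71, 0.76, 0.74, and 0.78, and without ZT 12 it was 0.83, 0.87, 0.85, and 0.86.

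Insig1 took a middle place. Its r was 0.65 with Hmgcs1, 0.60 with Sqle, 0.58 with Cyp51, and 0.51 with Idi1 (rho 0.63, 0.59, 0.57, and 0.44), with permutation p-values of r of 0.00295, 0.00393, 0.00547, and 0.0275 and adjusted p-values of 0.00563, 0.00688, 0.00884, and 0.0413. Permutation p-values of rho were 0.00453, 0.00556, 0.00734, and 0.0542, so that Idi1 with Insig1 did not pass by rank. Without the 2 farthest libraries r was 0.62, 0.52, 0.48, and 0.37. With Srebf2, Insig1 had an r of 0.47 (rho 0.42), which did not pass (adjusted permutation p = 0.0756). Without ZT 12 the adjusted permutation p-values of r for Cyp51 and Idi1 were 0.0533 and 0.126, and by rho no pair of Insig1 with an enzyme passed (adjusted permutation p-values 0.0515 to 0.229).

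Insig2 did not pass with any member. Its r was 0.56 with Hmgcs1, 0.38 with Srebf2, 0.28 with Cyp51, 0.23 with Insig1, 0.19 with Sqle, and 0.10 with Idi1, with adjusted permutation p-values from 0.123 to 0.611. Without ZT 12 (24 libraries) r with the same genes was -0.29, -0.0037, -0.06, -0.31, -0.09, and -0.10. The pooled values were thus positive only with ZT 12 included. The diets differed in these values, a difference that was not tested. On AIN93G (12 libraries) r of Insig2 was 0.87 with Hmgcs1, 0.79 with Sqle, and 0.70 with Cyp51, and on the HFD (18 libraries) 0.39, -0.11, and 0.03. Without ZT 12, r of Insig2 with the 6 other members was 0.25 to 0.65 on AIN93G (9 libraries) and -0.44 to -0.10 on the HFD (15 libraries).

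**Figure D5:**
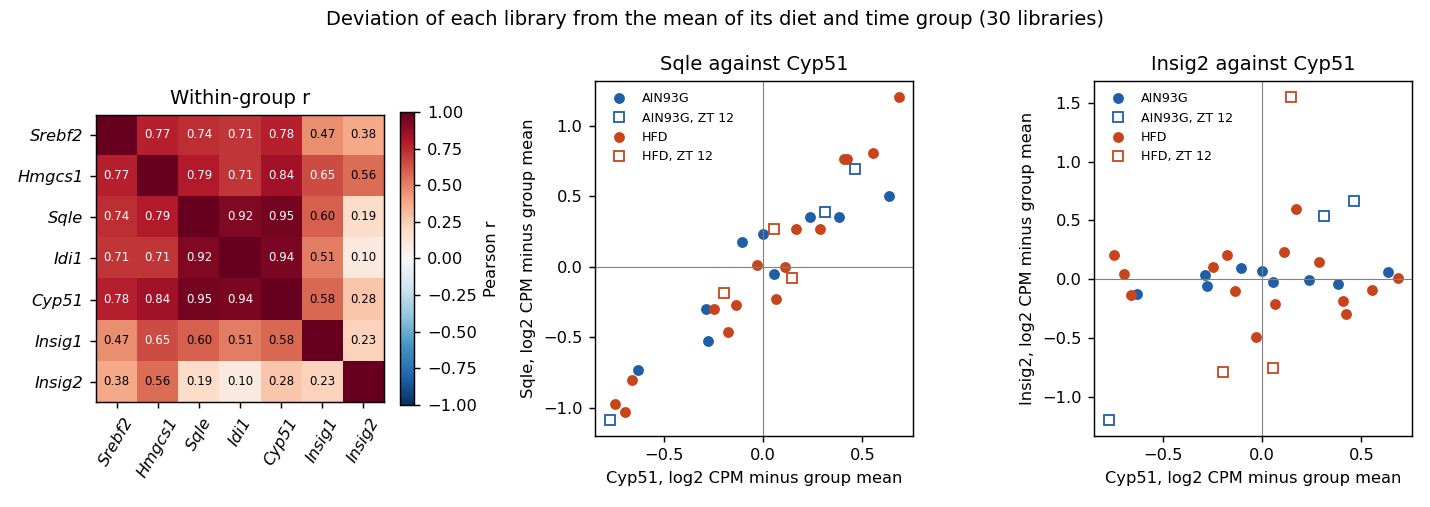
Deviations in log2 CPM from the mean of each diet and time group in 30 liver libraries. The matrix gives Pearson r for each pair (colour from -1 to 1), and the scatter plots set Sqle (r = 0.95) and Insig2 (r = 0.28) against Cyp51, with open squares for ZT 12.

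Genes outside the list were ranked by their r across all 32 liver libraries, as a description in which time, diet, and library are shared by all genes. The mean of the 4 enzymes was most like Nsdhl (r = 0.90), Dhcr7 (0.80), and Lss (0.80), all enzymes of the later sterol steps, then Rdh11 (0.77), a retinol dehydrogenase, and Mvd (0.75), the mevalonate diphosphate decarboxylase. Insig2 was most like Clpx (0.96), Dpp9 (0.96), and Arntl (0.93), which encodes the core clock factor BMAL1. Insig1 was most like Kpnb1 (0.83), Acsl3 (0.82), and Stk38l (0.79), and Srebf2 most like Adar (0.75), Mmab (0.72), and Klhdc8a (0.72).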

How the data were processed

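Poly(A) RNA of 42 libraries labelled liver was sequenced. The authors deposited raw counts of reads for each gene in a single table, and the submitters' processing notes name fastp, STAR, HTSeq 0.6.1, DESeq, STAR-Fusion, and build mm10. The kit is not labelled as directional and counting by strand is not stated, so a gene and its antisense partner cannot be told apart.

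Libraries with Alb above 10000 CPM by library size were kept (32). Genes whose counts averaged 25 or more in them (12000) were tested in R 4.3.3 by edgeR 4.0.16, quasi-likelihood (TMM, Benjamini-Hochberg over all tested genes, adjusted p under 0.05). Log2 CPM used a prior count of 2. Alternatives were DESeq2 1.42.0, limma 3.58.1, other scaling and filters, leaving out ZT 12 or 1 library, and pooled fits. Fits were tested on simulated data. Correlations used Python 3.11.15 with numpy 2.4.6. All 30 pairs of libraries of 1 liver group differed by more than sampling noise (chi-square over degrees of freedom, 16.4 or more). Mice were group-housed, and some titles share a leading number whose meaning is not given, so p-values measure the spread between these libraries.

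Members and lists were chosen with earlier results of these data known. The text names all members, Alb, called genes of the lists (up to 4 a list and comparison), and the genes most like the members, and Dbp, Nr1d1, and Arntl fall under those rules. Genes that may not be reported were passed over.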

Additional observations from a re-analysis of the deposited data

Results flagged for a closer look

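In the 10 libraries that are not liver by the Alb rule, which enter no comparison above, all 7 genes were detected well above the 3 counts that a count of 0 allows. By library size alone, the lowest CPM there was 59.1 for Srebf2, 120 for Hmgcs1, 19.4 for Sqle, 14.2 for Idi1, 38.5 for Cyp51, 177 for Insig1, and 43.1 for Insig2. Insig2 ranged from 43.1 to 62.8 CPM in them, against 57.5 to 576 CPM in the 32 liver libraries on the same scale. Medians of Hmgcs1 (173 CPM against 237 in liver), Idi1 (24.7 against 51.7), Sqle (33.6 against 57.8), and Cyp51 (66.7 against 147) were lower than in liver, and those of Srebf2 (76.8 against 67.3) and Insig1 (488 against 382) were higher. Adipocyte markers were high in these libraries. No test was run, since tissue, diet, and time are mixed in them.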

How the results depend on the processing

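No paired analysis was possible because replicate numbers were given in accession order, and the leading numbers that some titles share have no stated meaning and never span both diets. Members had 1253 diet, interaction, time, and cosine values under an alternative. Of these, 1191 stayed on their side of the threshold without a change of sign, 23 passed it, and 39 changed sign, 35 of the last without 1 library. A sign was compared for the diet differences only, as the other values are adjusted p-values. Correlations are not in this count. No value that had been called changed sign, since no member was called in the diet, time, and cosine tests as set (the pair of HFD time points for Insig1 is not among them). The causes were not tested.

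Genes called for diet at ZT 0, 4, 8, and 12 numbered 102, 28, 57, and 4 with DESeq2, and 453, 182, and 252 at ZT 0, 4, and 8 with no filter, where 1 member (Sqle) was called at ZT 4 and 1 at ZT 8. With at least 25 counts in every library, 1 gene was called at ZT 4. In 1 fit of 24 libraries, 0 were called at ZT 0 and 1 at ZT 8. Over ZT 0 to ZT 12, 80 genes were called with DESeq2, 27 with library size only, 86 with no filter, 85 without ZT 12, and 341 in all 42 libraries. The interaction gave 8 with DESeq2 and 78 with no filter.

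Over time on the HFD, DESeq2 called 1533 genes and 1 member, no filter 2333 and 6, and leaving out ZT 12 gave 629 and 1. For the cosine, DESeq2 called 1672 genes and 1 member, no filter, leaving out ZT 12, and limma on log2 CPM each called 1 member, and 366 genes were called with the HFD library of ZT 24. On AIN93G, DESeq2 called 276 genes and 1 member, no filter 705 and 1, and leaving out ZT 12 gave 288 and 1. The fit of both diets at ZT 0, 4, and 8 called 1310 and 1.

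Signs turned for Srebf2 at ZT 12 (log2 0.012 with no filter and 0.00096 in 1 fit of 24 libraries), and in all 42 libraries for Sqle (0.39) and Insig1 (0.016). Without ZT 12, r of Insig2 was -0.0037, -0.29, -0.090, -0.098, -0.056, and -0.31 with Srebf2, Hmgcs1, Sqle, Idi1, Cyp51, and Insig1, all positive with it, and r of Insig1 with Idi1 and Cyp51 (0.48 and 0.55) no longer passed.

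Leaving out 1 library at a time gave 1 to 32 genes at ZT 0 (32 without HFD ZT 0 replicate 1), 0 to 3 at ZT 4, 0 to 2 at ZT 8, 2 to 124 over ZT 0 to ZT 12 (124 without AIN93G ZT 12 replicate 1), 0 to 3 for the interaction, 172 to 1081 over time on the HFD with 0 to 1 member, 676 to 1705 for the cosine with 0 to 2 members (Insig2 and Srebf2, without HFD ZT 12 replicate 3, which also gave the 1081), and 0 to 305 on AIN93G with 0 to 1 member (305 without AIN93G ZT 12 replicate 1). Log2 differences at ZT 0 were -0.38 to 0.31 for Cyp51, -0.26 to 0.50 for Hmgcs1, and -0.54 to 0.39 for Idi1. At ZT 4 Insig2 had -0.042 to 0.20. At ZT 8 the ranges were -0.35 to 0.0028 for Cyp51, -0.12 to 0.34 for Hmgcs1, -0.39 to 0.28 for Idi1, and -0.37 to 0.25 for Insig1. At ZT 12 they were -0.38 to 0.67 for Hmgcs1, -0.46 to 0.051 for Insig1, -1.45 to 0.12 for Insig2, and -0.13 to 0.074 for Srebf2. Over ZT 0 to ZT 12 they were -0.15 to 0.0062 for Insig1, -0.073 to 0.22 for Insig2, and -0.16 to 0.076 for Sqle.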
